A study of Homo sapiens with 27 samples.

Results

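Neuropeptide genes and the genes of their receptors were followed by bulk RNA-seq while H1 human embryonic stem cells (hESCs), an established pluripotent line, were taken toward photoreceptor progenitors on laminin matrices. The set held 10 of the 44852 genes in the count table and was taken by gene symbol. It comprised the peptide genes NTS, VIP, ADCYAP1 and NPY and the receptor genes NTSR1, VIPR1, VIPR2, NPY1R, NPY2R and OPRK1. The genes were chosen by measured values, since NTSR1 and VIPR2 were higher on the LN523 matrix than on LN521 on day 32. That contrast is therefore given below as a description with no test, and comparisons that use its day 32 libraries are marked as sharing them.

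Neuropeptides are cut from longer precursors, stored in dense-core vesicles and released to act on G-protein-coupled receptors. NTS encodes neurotensin, and NTSR1 is its high-affinity receptor, which signals through Gq. VIP encodes vasoactive intestinal peptide and ADCYAP1 encodes the related peptide PACAP. Both peptides bind VIPR1 and VIPR2, which raise cAMP through Gs, and PACAP has a further receptor of its own, ADCYAP1R1. NPY encodes neuropeptide Y, and its receptors NPY1R and NPY2R, like the kappa-opioid receptor OPRK1, signal through Gi. In the mature retina VIP, NPY and neurotensin are known from amacrine cells, and PACAP is known from a class of retinal ganglion cells.

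The libraries came from 3 matrices, LN523, LN323 and LN521, at days 2, 22 and 32, with 3 libraries in each of the 9 groups. Laminins are 3-chain basement membrane proteins, and these isoforms differ in their alpha and gamma chains. The labels call the day 2 cells undifferentiated hESCs and the later cells photoreceptor progenitors, and the titles number the same time points 0, 20 and 30. The sources differ on the coatings. The study's methods describe LN523 with LN521, LN323 with LN521, and LN521 alone, whereas the labels give LN523 with LN323, LN323 alone, and LN521 with LN323. All groups shared the H1 line, neural induction medium with CKI-7 and SB431542 from day 2, and then a medium with BDNF, CNTF, retinoic acid and DAPT, so no group was an untreated control at day 22 or 32. The labels number the replicates by sequencing lane and do not say whether they were separate cultures, so p-values measure only the spread between these libraries.

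Whole cultures were lysed, so fewer cells of a type and less RNA per cell cannot be told apart in any value below. Total counts ran from 25620624 to 47340990 per library with a median of 39862487, and 3 counts in 1 library stood for a median of 0.0781 CPM, the count scaled to a library of 1e+06 counts. The summed level of 6 pluripotency markers ran from 5421 to 9588 CPM on day 2 and from 8.81 to 63.1 CPM on day 32. The eye field and neural retina markers rose from at most 6.91 CPM on day 2 to at least 922 CPM on day 22. Of the photoreceptor precursor markers, CRX averaged 23.1 CPM on LN523, 6.77 CPM on LN323 and 17.2 CPM on LN521 on day 32, RBP3 was highest on LN523 with a mean of 32.7 CPM, and RCVRN averaged 2.41, 0.174 and 1.07 CPM. The 7 photoreceptor precursor markers summed to 45.7 to 228 CPM on LN523, 21.7 to 58.9 CPM on LN323 and 55.1 to 186 CPM on LN521 on that day. The LN521 day 22 library of replicate 1 held 408 CPM of pluripotency markers, against 38.7 to 167 CPM in the 6 libraries of the other matrices on that day.

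By GENCODE 44 on GRCh38, NTS lies at chr12:85874295-85882992 on the plus strand and NTSR1 at chr20:62708836-62762771 on the plus strand. VIP lies at chr6:152750797-152759765, ADCYAP1 at chr18:904871-912172 and VIPR1 at chr3:42489299-42537573, all on the plus strand, and VIPR2 lies at chr7:159028175-159144867 on the minus strand. NPY lies at chr7:24284188-24291862 on the plus strand and so does NPY2R at chr4:155208636-155217078, whereas NPY1R lies at chr4:163323962-163344832 on the minus strand. All 10 are protein-coding and counts were summed over their exons. Exons of genes on the opposite strand covered 39.4% of the exonic length of VIPR2 (LINC00689), 20.6% of VIP (LINC02840), 14.9% of ADCYAP1 (ENSG00000265179), 13.3% of NPY1R (NPY5R), 11.4% of VIPR1 (VIPR1-AS1) and 1.82% of NPY2R (NPY2R-AS1). The library kit keeps the strand, but whether the counting used it is not given in the sources used here, so reads of such pairs may be shared.

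Upstream sequences are printed for 4 members, NTS and VIPR1, which fell on all matrices between day 2 and day 22, and NTSR1 and VIPR2, by which the set was chosen. Each run is the 250 bases before the RefSeq start on GRCh38.p14, written 5′ to 3′ on the gene's own strand. Capitals mark a cAMP response element half-site (TGACG or its reverse complement CGTCA) or the E-box CAGCTG. The windows are chr12:85874045-85874294 for NTS, chr3:42489049-42489298 for VIPR1, chr20:62708586-62708835 for NTSR1 and chr7:159144868-159145117 for VIPR2.
NTS: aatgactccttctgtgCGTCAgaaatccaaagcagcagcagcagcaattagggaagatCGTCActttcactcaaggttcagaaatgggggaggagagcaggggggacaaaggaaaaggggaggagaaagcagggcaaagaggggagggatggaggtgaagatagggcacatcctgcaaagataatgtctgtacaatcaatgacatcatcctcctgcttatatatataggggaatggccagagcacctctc
VIPR1: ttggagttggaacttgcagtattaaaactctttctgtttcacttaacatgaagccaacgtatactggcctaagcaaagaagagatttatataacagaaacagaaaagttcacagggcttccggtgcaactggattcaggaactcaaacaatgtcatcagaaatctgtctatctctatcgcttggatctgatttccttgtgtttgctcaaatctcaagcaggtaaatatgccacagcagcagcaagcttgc
NTSR1: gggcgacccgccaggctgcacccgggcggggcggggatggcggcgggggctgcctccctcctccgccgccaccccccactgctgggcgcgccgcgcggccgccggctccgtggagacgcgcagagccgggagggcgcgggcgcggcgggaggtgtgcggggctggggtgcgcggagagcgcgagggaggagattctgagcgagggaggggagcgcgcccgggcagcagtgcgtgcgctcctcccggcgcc
VIPR2: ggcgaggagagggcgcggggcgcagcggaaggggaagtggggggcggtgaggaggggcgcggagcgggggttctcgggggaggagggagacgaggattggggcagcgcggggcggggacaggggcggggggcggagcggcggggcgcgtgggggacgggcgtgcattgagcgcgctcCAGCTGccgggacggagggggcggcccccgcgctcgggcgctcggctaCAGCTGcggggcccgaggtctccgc
The half-site occurred in the windows of NTS (2 matches, starting 234 and 192 bases before the start) and VIP (2 matches, 89 and 79 bases before it), which is 2 of the 7 members whose RefSeq and GENCODE starts coincide. It occurs in 21.2% of all 35116 promoters of the same length. The E-box occurred in NPY2R and, at 2 positions 73 and 25 bases before the start, in VIPR2, against 14% of all promoters. No window of the 7 held the full palindrome TGACGTCA, found in 1.65% of promoters, or TAATCC, found in 5.62%. The windows of NTSR1 and VIPR2 were 82% and 80.4% G or C (percentiles 98.6 and 97.4 of all promoters), while that of VIP was 34% (percentile 4.82) and the median of all was 58%. A match or its lack describes only these letters in this window.

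Levels were first ordered between genes by the deposited TPM, which is per length. NTS had the highest mean of the 10 genes in all 3 day 2 groups and all 3 day 32 groups, and NPY1R had the highest mean in all 3 day 22 groups. On LN523 the mean TPM of NTS was 42.5 ± 18.4 (SD, n = 3) on day 2, 13.5 ± 12.8 on day 22 and 36.1 ± 17.9 on day 32. That of NPY1R on LN523 was 9.18 ± 2.13, 17.9 ± 6.79 and 12.8 ± 4.33, so NTS and NPY1R did not differ beyond their spread on day 22. VIP, NPY2R and ADCYAP1 filled the lowest places on day 2 on every matrix, each with a mean of at most 0.362 TPM. All values that follow are CPM, scaled by TMM over the 27 libraries, and compare 1 gene between libraries.

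**Figure D1:**
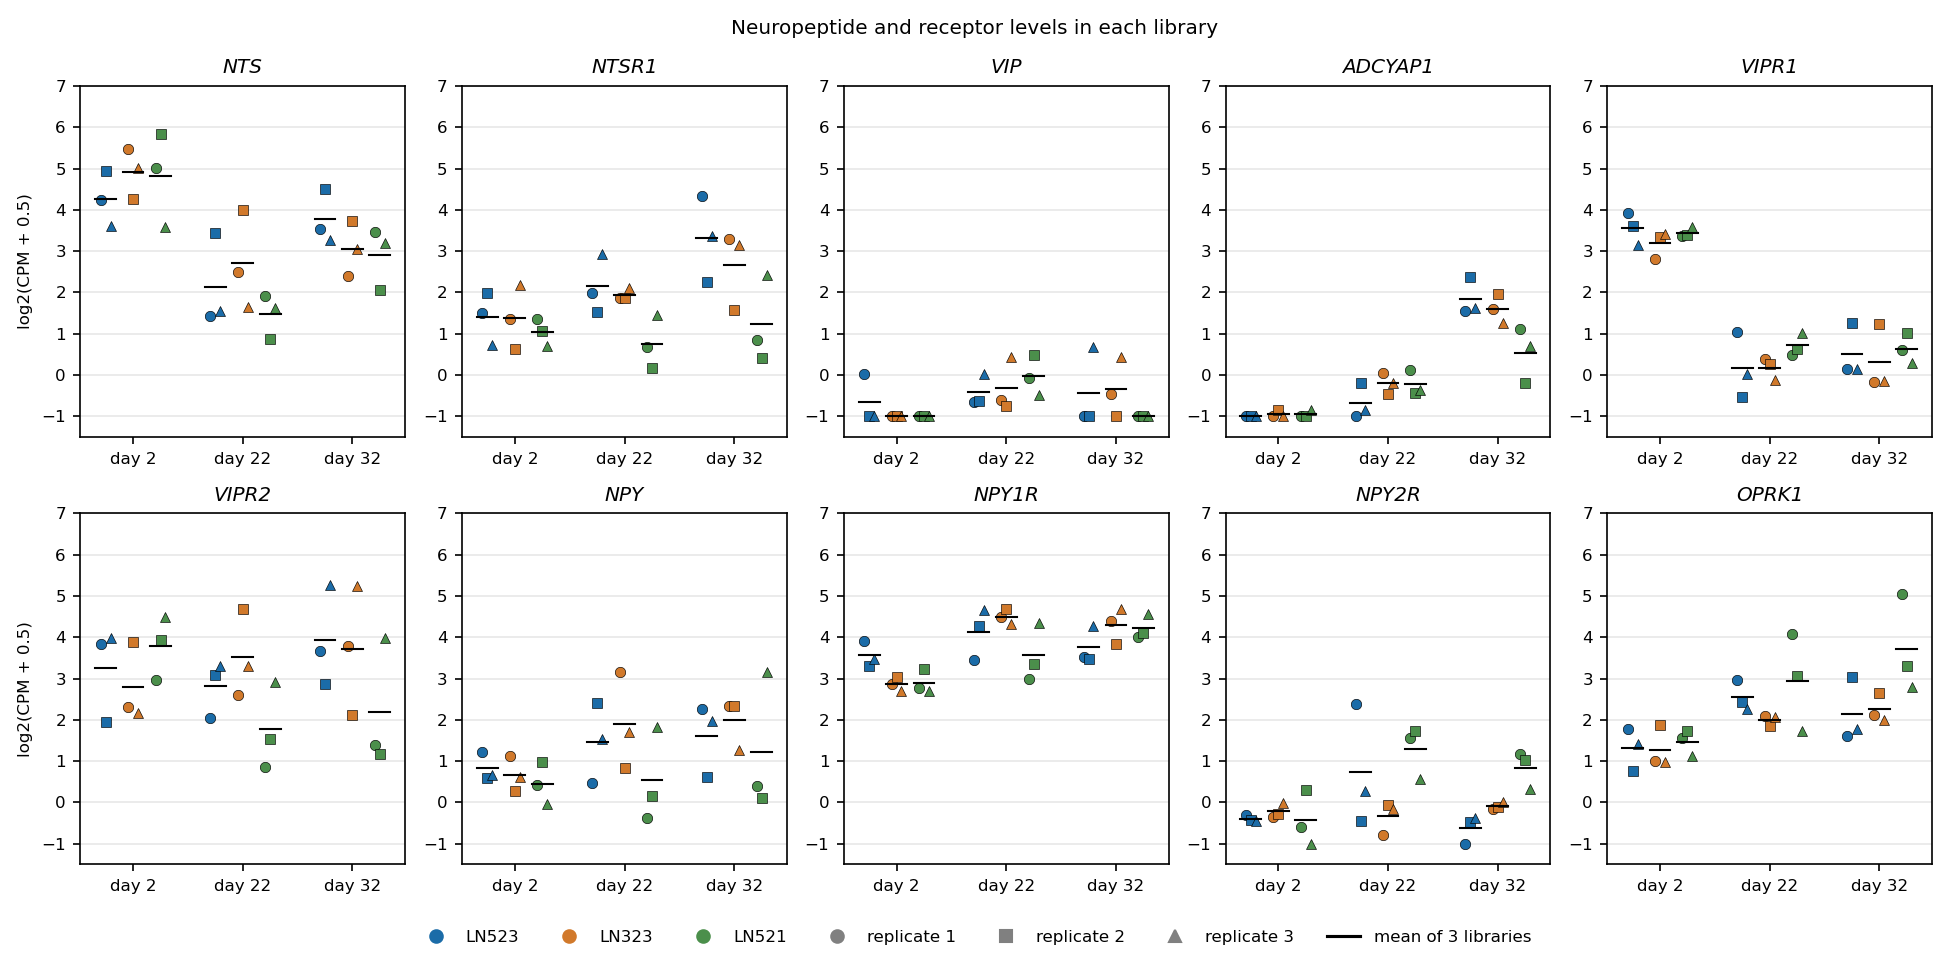
Levels of the 10 genes as log2(CPM + 0.5) on the vertical axis, by day and matrix, with 1 symbol per library and a bar at the mean of the log values of 3 libraries. NTS and VIPR1 sit highest on day 2, ADCYAP1 is near 0 CPM on day 2 and highest on day 32, and VIPR2 on day 32 is highest in replicate 3 on every matrix.

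NTS, the neurotensin precursor, was highest on day 2 and fell by day 22 on every matrix. On day 2 it measured 18.3, 29.99 and 11.7 CPM on LN523 (replicates 1, 2 and 3), 43.9, 18.8 and 31.9 CPM on LN323, and 32.0, 56.6 and 11.5 CPM on LN521. On day 22 it measured 2.18, 10.3 and 2.43 CPM on LN523, 5.14, 15.3 and 2.65 CPM on LN323, and 3.27, 1.33 and 2.58 CPM on LN521. On each matrix all 3 day 22 libraries lay below all 3 of day 2, and replicate 2 was the highest on day 22 on LN523 and LN323 but the lowest on LN521. The log2 change was -2.13 (SE 0.47, adjusted p = 4.03e-04) on LN523, -2.38 (SE 0.48, adjusted p = 1.02e-04) on LN323 and -3.51 (SE 0.51, adjusted p = 2.30e-07) on LN521, by edgeR's quasi-likelihood test adjusted over all genes. These calls were kept without any single library and under every other setting tried. Replicate 2 of LN523 and LN323 on day 22 held 146 and 133 CPM of neural crest and glia markers. The other 4 libraries of these matrices held 34.3 to 56.4 CPM. On LN521 these markers summed to 151, 97.0 and 45.8 CPM, beside NTS levels of 3.27, 1.33 and 2.58 CPM. Replicate 2 of LN523 and LN323 was also the highest of its group for amacrine and horizontal, ganglion and surface ectoderm markers. TFAP2B is counted in both the crest and the amacrine list. The part of any list in the NTS levels was not tested.

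From day 22 to day 32 the NTS level measured higher on LN523 and LN521, without passing the test. On day 32 it was 11.2, 22.2 and 9.14 CPM on LN523, 4.76, 12.7 and 7.81 CPM on LN323, and 10.5, 3.64 and 8.66 CPM on LN521. Only on LN521 did all day 32 libraries lie above those of day 22, and on LN323 the libraries of both days overlapped. The log2 differences were 1.63 (SE 0.47, adjusted p = 0.163) on LN523, 0.31 (SE 0.46, adjusted p = 1) on LN323 and 1.70 (SE 0.47, adjusted p = 0.139) on LN521. In fits of only the 9 libraries of a matrix, NTS passed on LN523 (adjusted p = 8.24e-04) and LN521 (adjusted p = 3.74e-04), and it also passed without replicate 2 of LN523 on day 22 (adjusted p = 0.0072) or replicate 2 of LN521 on day 32 (adjusted p = 0.012). The day 32 libraries of LN523 and LN521 are those the set was chosen by.

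NTSR1, the neurotensin receptor, showed no call between day 2 and day 22 on any matrix. It measured 2.34, 3.45 and 1.16 CPM on LN523, 2.07, 1.04 and 4.04 CPM on LN323, and 2.06, 1.58 and 1.13 CPM on LN521 on day 2. On day 22 it measured 3.47, 2.38 and 7.09 CPM on LN523, 3.12, 3.14 and 3.80 CPM on LN323, and 1.09, 0.616 and 2.25 CPM on LN521. The days overlapped on every matrix, with log2 differences of 0.55 (adjusted p = 0.603), 0.69 (adjusted p = 0.457) and -0.50 (adjusted p = 0.659). On day 32 it was 19.8, 4.23 and 9.90 CPM on LN523, 9.34, 2.49 and 8.37 CPM on LN323, and 1.31, 0.821 and 4.86 CPM on LN521, the lowest library being replicate 2 on every matrix. The differences of day 32 from day 22 were 1.41, 0.83 and 0.75 on the log2 scale, with adjusted p = 0.642, 1 and 0.988. On LN523 and LN521 they use the day 32 values this gene was chosen by, so nothing is read from them. Between days 2 and 22 the peptide gene therefore had a call on every matrix and its receptor gene had none.

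VIP was at or near the counting limit. On day 2 no read was counted on LN323 or LN521, and only replicate 1 of LN523 held any, at 0.521 CPM (20 counts). On day 22 all 9 libraries held reads, from 4 counts to 38, at 0.139, 0.143 and 0.515 CPM on LN523, 0.152, 0.0911 and 0.844 CPM on LN323 and 0.454, 0.900 and 0.220 CPM on LN521. Against the 3 counts over a group that a count of 0 allows, the day 22 level was at least 14.4-fold higher than that of day 2 on LN323 (adjusted p = 0.0189) and at least 21-fold higher on LN521 (adjusted p = 0.00232). Every VIP count was even, and if both reads of a pair were counted, these bounds are too high. On LN523 the log2 difference was 0.18 (SE 1.60, adjusted p = 1), and without the 1 day 2 library that held reads it passed (adjusted p = 0.0489). The call on LN323 was lost without replicate 1 or replicate 3 of day 2, without replicate 3 of day 22, with the filterByExpr filter and in limma on log2 TPM, at adjusted p = 0.0539 to 0.21, and that on LN521 was lost in limma alone (adjusted p = 0.055).

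On day 32 VIP was again listed at 0 in 6 of the 9 libraries. Replicate 3 measured 1.11 CPM on LN523 and 0.862 CPM on LN323, replicate 1 measured 0.224 CPM on LN323, and all LN521 libraries were at 0. The LN521 level was thus at least 19.9-fold lower than on day 22, a bound also too high if both reads of a pair were counted. The contrast had an adjusted p = 0.0754 that missed the threshold. That contrast passed without replicate 1 or replicate 3 of LN521 on day 22, at adjusted p = 0.0371 and 0.0253. It shares the LN521 day 32 libraries with the choice of the set. The 7 amacrine and horizontal cell markers summed on LN521 to 171, 101 and 70.0 CPM on day 22 and to 85.6, 114 and 97.9 CPM on day 32. Among them TFAP2A averaged 20.6 and 12.1 CPM and TFAP2B, also a neural crest marker here, 49.2 and 28.9 CPM. The others measured higher on day 32. GAD1 averaged 5.20 and 9.97 CPM, SLC6A9 14.5 and 21.4 CPM, and PROX1 18.6 and 20.5 CPM. ONECUT1 averaged 5.56 and 6.25 CPM, and PTF1A 0.0517 and 0.0868 CPM. Their part in the VIP levels was not tested.

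ADCYAP1, which encodes PACAP, rose by day 22 on all 3 matrices from almost no reads on day 2. On day 2 it held 0 counts in 7 of 9 libraries and 2 counts in each of the others. On day 22 it measured 0, 0.381 and 0.0572 CPM on LN523, 0.533, 0.228 and 0.375 CPM on LN323, and 0.590, 0.237 and 0.275 CPM on LN521. On LN323 and LN521 all day 22 libraries lay above day 2, and both changes passed (adjusted p = 0.00237 and 0.00316). The pooled counts rose from 2 to 40 on LN323, a ratio of 19.7 at equal depth (exact 95% interval 5.1 to 168). On LN521 they rose from 2 to 46, a ratio of 21.9 (5.74 to 187). These intervals cover counting error only and take each count as independent. All ADCYAP1 counts of these days were even. If both reads of a pair were counted, the intervals are too narrow and the LN523 bound below is too high. On LN523 the level was at least 4.83-fold higher than the day 2 limit (adjusted p = 0.00928), but 16 of its 18 counts came from replicate 2, without which adjusted p = 0.253. None of the 3 rises passed in limma on log2 TPM (adjusted p = 0.207 to 0.65), where the pseudocount of 1 lies above these levels.

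Between day 22 and day 32 ADCYAP1 was the only one of the 10 genes to pass on any matrix, and it did so on LN523. On day 32 it measured 2.43, 4.64 and 2.60 CPM on LN523, 2.55, 3.37 and 1.90 CPM on LN323, and 1.65, 0.381 and 1.12 CPM on LN521. The LN523 and LN323 libraries lay above all those of day 22 on the same matrix, while replicate 2 of LN521 lay within the day 22 range. The log2 change was 4.49 (SE 0.88, adjusted p = 0.00368) on LN523, 2.73 (SE 0.81, adjusted p = 0.47) on LN323 and 1.55 (SE 0.78, adjusted p = 0.824) on LN521. The LN523 call was lost with the filterByExpr filter (adjusted p = 0.113) and without replicate 1 or replicate 3 of day 22 (adjusted p = 0.087 and 0.0687), and it shares its day 32 libraries with the choice of the set. In the fit of only its 9 libraries the LN323 change also passed (adjusted p = 0.013).

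Some markers of retinal ganglion cells and of photoreceptor precursors moved over the same interval. Of the 6 ganglion markers 2 were called higher from day 22 to day 32 on LN523, 0 on LN323 and 2 on LN521, with median log2 changes of 1.57, 0.51 and 0.33. ATOH7, a transcription factor of ganglion cell precursors, had the highest mean of the 6 on day 32 on every matrix. It averaged 4.93 CPM on day 22 and 144 CPM on day 32 on LN523, 10.5 and 50.6 CPM on LN323, and 1.00 and 55.9 CPM on LN521. On day 22 RBPMS and SNCG averaged more than ATOH7 on every matrix. POU4F2, a transcription factor of ganglion cells, averaged 0.409 and 18.2 CPM on LN523, 1.45 and 8.77 CPM on LN323, and 0.361 and 6.16 CPM on LN521. The ganglion marker RBPMS averaged 18.8 and 18.1 CPM on LN523, 17.8 CPM on both days on LN323, and 20.9 and 16.0 CPM on LN521, and POU4F1 stayed at or under 2.25 CPM. The summed level of the 6 ran from 22.4 to 68.9 CPM on LN523 on day 22 and from 149 to 302 CPM on day 32, from 27.5 to 69.3 and 78.9 to 141 CPM on LN323, and from 27.1 to 104 and 70.6 to 213 CPM on LN521, with none of the 6 at 0 in these groups. Of the 7 photoreceptor precursor markers 3 were called higher on LN523, 0 on LN323 and 2 on LN521, with median log2 changes of 3.00, 0.71 and 2.21. Among all genes 0.343%, 0.0357% and 0.196% were called higher on these matrices. Under the filterByExpr filter 0 of 25682 genes were called on LN523, so all marker calls of both lists there were lost. The day 32 libraries of LN523 and LN521 are those the set was chosen by. The part of either list in the ADCYAP1 change was not tested.

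VIPR1, a receptor shared by VIP and PACAP, fell by day 22 on every matrix. On day 2 it measured 14.8, 11.8 and 8.30 CPM on LN523, 6.47, 9.71 and 10.2 CPM on LN323, and 9.74, 9.91 and 11.6 CPM on LN521. On day 22 it measured 1.57, 0.190 and 0.515 CPM on LN523, 0.799, 0.706 and 0.422 CPM on LN323, and 0.908, 1.04 and 1.54 CPM on LN521. Every day 22 library lay below every day 2 library. The log2 change was -3.87 (SE 0.58, adjusted p = 4.10e-07) on LN523, -3.83 (SE 0.58, adjusted p = 5.46e-07) on LN323 and -3.15 (SE 0.56, adjusted p = 1.34e-05) on LN521. It stayed between 0.392 and 1.90 CPM on day 32, with no call from day 22, where LN523 and LN521 share their day 32 libraries with the choice. All 3 falls were kept without any single library and under every other setting tried.

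VIPR2, the other shared receptor, fell by day 22 on LN521 and passed no test on the other matrices. On day 2 it measured 13.7, 3.36 and 15.3 CPM on LN523, 4.48, 14.2 and 4.01 CPM on LN323, and 7.27, 14.7 and 22.2 CPM on LN521. On day 22 it measured 3.63, 7.94 and 9.41 CPM on LN523, 5.59, 25.1 and 9.44 CPM on LN323, and 1.32, 2.42 and 7.03 CPM on LN521. The LN521 libraries of day 22 lay below all 3 of day 2, and the days overlapped on the other matrices. The log2 change was -2.20 (SE 0.58, adjusted p = 0.00312) on LN521, where only limma on log2 TPM missed the threshold (adjusted p = 0.0586). It was -0.75 (SE 0.56, adjusted p = 0.454) on LN523 and 0.75 (SE 0.55, adjusted p = 0.429) on LN323.

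The test of the difference between the day 2 to day 22 changes of VIPR2 on LN323 and LN521 gave a log2 difference of 2.95 (SE 0.79, adjusted p = 0.208), so the fall on LN521 was not shown to differ from the change on LN323. That test passed without replicate 2 of LN323 on day 2 (adjusted p = 0.00931) and with only the 12 libraries of the 4 groups fitted (adjusted p = 1.55e-06). Without that LN323 library the change on LN323 itself was a rise of 1.87 (adjusted p = 0.0243). The library left out held 14.2 CPM, against 4.48 and 4.01 CPM in the other two of its group. On day 32 VIPR2 was highest in replicate 3 on every matrix, at 38.2 CPM on LN523, 37.6 CPM on LN323 and 15.3 CPM on LN521, while the other libraries held 12.3 and 6.76, 13.4 and 3.83, and 2.11 and 1.76 CPM. No change from day 22 passed (adjusted p = 0.977, 1 and 0.988 on LN523, LN323 and LN521). On LN523 and LN521 these tests use the day 32 values this gene was chosen by, so nothing is read from them.

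NPY, the neuropeptide Y gene, was low and spread widely. It ran from 0.474 to 1.82 CPM over the 9 libraries of day 2, from 0.272 to 8.37 CPM on day 22 and from 0.587 to 8.39 CPM on day 32. The change from day 2 to day 22 was 1.17 (SE 0.75, adjusted p = 0.339) on LN523, 1.81 (SE 0.74, adjusted p = 0.0754) on LN323 and 0.22 (SE 0.77, adjusted p = 0.982) on LN521 on the log2 scale. On LN323 all replicates measured higher, from 1.68, 0.711 and 1.03 CPM to 8.37, 1.27 and 2.76 CPM, but replicate 2 of day 22 lay within the day 2 range. Without that library the change passed (adjusted p = 0.0198), as it did with only the LN323 libraries fitted (adjusted p = 0.00376).

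NPY1R, a receptor of NPY, was among the higher genes of the set throughout and rose by day 22 on LN323. There it went from 6.86, 7.71 and 6.02 CPM to 21.8, 25.1 and 19.7 CPM, with no overlap and a log2 change of 1.69 (SE 0.33, adjusted p = 4.67e-05) that was kept under every setting tried. On LN523 it went from 14.5, 9.42 and 10.6 CPM to 10.5, 18.9 and 25.0 CPM, and on LN521 from 6.38, 8.86 and 6.03 CPM to 7.40, 9.81 and 20.0 CPM. The days overlapped on both of these matrices, with log2 differences of 0.59 (adjusted p = 0.232) and 0.72 (adjusted p = 0.124). Each passed without replicate 1 of its day 22 group (adjusted p = 0.0382 on LN523 and 0.0339 on LN521). The difference between the LN323 and LN521 changes was 0.97 (SE 0.45, adjusted p = 0.904), so the rise was not shown to be particular to LN323. On day 32 NPY1R ran from 10.7 to 25.3 CPM over all 9 libraries, with no call from day 22. Those of LN523 and LN521 are shared with the choice of the set.

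NPY2R, the other NPY receptor of the set, was near the limit of counting on day 2 and rose by day 22 on LN523 and LN521. Its day 2 levels ran from 0 to 0.743 CPM. On day 22 it measured 4.72, 0.238 and 0.715 CPM on LN523, 0.0761, 0.455 and 0.398 CPM on LN323, and 2.45, 2.82 and 0.988 CPM on LN521. The LN521 libraries all lay above day 2, whereas on LN523 the level was carried by replicate 1 and replicate 2 lay within the day 2 range. The log2 change was 2.83 (SE 0.93, adjusted p = 0.0207) on LN523, and without replicate 1 of day 22 it was 0.85 (adjusted p = 0.725). The LN523 call was also lost without any single day 2 library, in limma and with only the LN523 libraries (adjusted p = 0.0517 to 0.0839). On LN521 it was 2.85 (SE 0.91, adjusted p = 0.0182), a call lost without replicate 1 or 3 of day 2 or replicate 2 of day 22 (adjusted p = 0.0661 to 0.13). On LN323 it was -0.23 (SE 0.89, adjusted p = 1). On day 32 the LN521 libraries measured 1.75, 1.55 and 0.755 CPM, above all others of that day, which ran from 0 to 0.507 CPM. The LN521 and LN523 libraries of that day are those the set was chosen by.

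OPRK1, the kappa-opioid receptor gene on the minus strand of chromosome 8, rose by day 22 on LN523 and LN521. It measured 2.92, 1.20 and 2.16 CPM on LN523 and 2.45, 2.83 and 1.68 CPM on LN521 on day 2, and 7.36, 4.95 and 4.29 CPM and 16.4, 7.82 and 2.80 CPM on day 22. On LN523 the days did not overlap, and on LN521 replicate 3 of day 22 lay within the day 2 range. The log2 changes were 1.36 (SE 0.48, adjusted p = 0.0327) and 1.81 (SE 0.48, adjusted p = 0.00389). The LN523 call was lost without replicate 1 or 2 of day 2 or replicate 3 of day 22 and in limma on log2 TPM (adjusted p = 0.0562 to 0.235), and the LN521 call without replicate 1 of day 22 (adjusted p = 0.0757). On LN323, from 1.49, 3.17 and 1.46 CPM to 3.81, 3.10 and 3.70 CPM, the log2 difference was 0.85 (adjusted p = 0.247). On day 32 it ran from 2.56 to 7.71 CPM on LN523 and LN323 together and measured 32.5, 9.45 and 6.43 CPM on LN521, of which the highest came from replicate 1. These LN523 and LN521 libraries are those the set was chosen by. Replicate 1 of LN521 also held the most forebrain and hypothalamus markers on both days, 63.3 and 57.7 CPM against 11.4 to 12.2 and 5.20 to 15.5 CPM in the other LN521 libraries, and their part in the OPRK1 level was not tested.

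**Figure D2:**
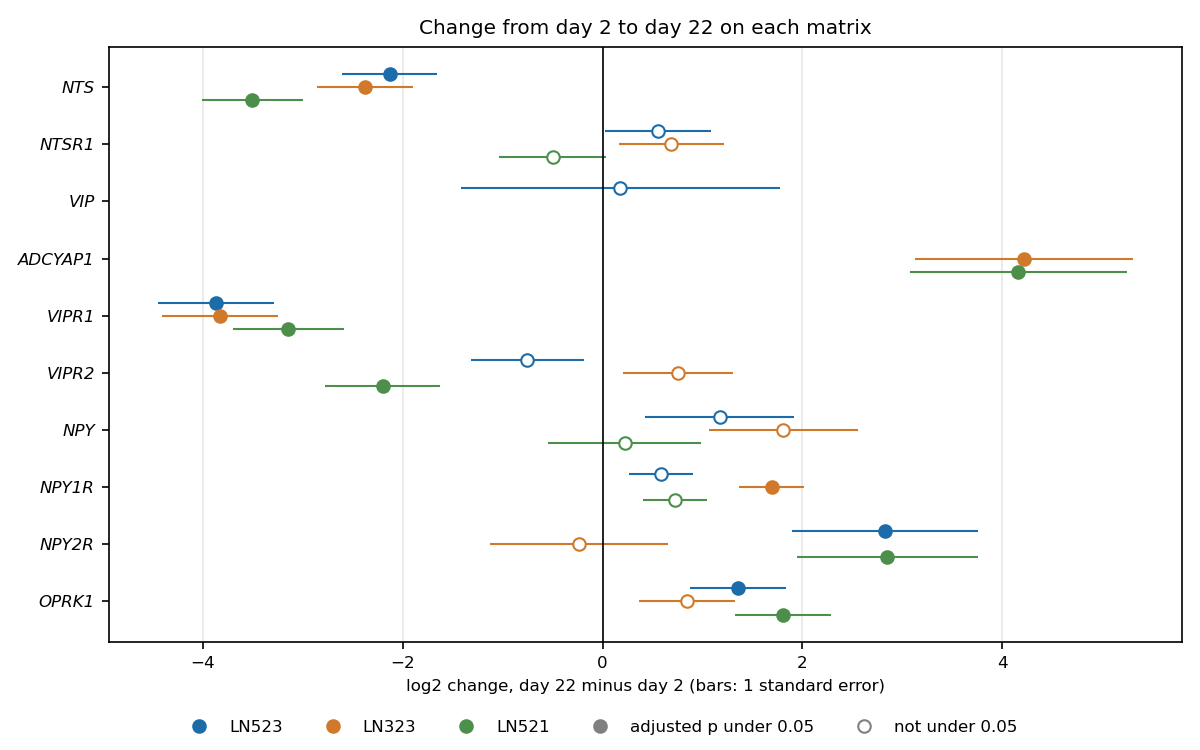
Fitted log2 change from day 2 to day 22 (horizontal axis, bars of 1 standard error) for each gene on each matrix, filled where adjusted p was under 0.05. NTS and VIPR1 lie below 0 on all 3 matrices, and values for VIP on LN323 and LN521 and ADCYAP1 on LN523 are not drawn because all their day 2 libraries held 0 counts.

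Between day 2 and day 22 the set held 3 higher and 2 lower genes on LN523, 3 higher and 2 lower on LN323, and 4 higher and 3 lower on LN521. Among all 44852 genes tested, 11.5% were called higher and 10.2% lower on LN523, 11.8% and 10.9% on LN323, and 10.8% and 8.09% on LN521. The filter on low counts removed no gene of the table, so these shares include many genes with few counts. With the filterByExpr filter 10707, 11149 and 9296 of 25682 genes were called in either direction on LN523, LN323 and LN521. Of the set 5, 4 and 7 genes were called with that filter. The median log2 change of the 10 genes was 0.57, 0.80 and 0.47 on LN523, LN323 and LN521, also with the genes at 0 on day 2 set to their lower bound. Over all genes tested the medians were 0.0198, 0.0188 and -0.0178. On all 3 matrices NTS and VIPR1 were lower and ADCYAP1 was higher. The tests of the differences between these changes called none of the 10 genes, with 0%, 0.00446% and 0.0201% of all genes called for LN523 against LN323, LN523 against LN521 and LN323 against LN521. At an unadjusted p under 0.05 3, 2 and 3 of the 10 genes were counted in edgeR. The share of all genes at that threshold was not counted, so nothing is read from these numbers. DESeq2 called 0 of the 10 in each, beside 10, 10 and 23 genes of the table.

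Between day 22 and day 32 the set held 1 gene higher on LN523, ADCYAP1, and none on LN323 or LN521. Every comparison of these days on LN523 or LN521, here and in the lists, shares the day 32 libraries of the choice. Of all genes 0.343% were called higher and 0.0379% lower on LN523, 0.0357% and 0.00669% on LN323, and 0.196% and 0.0713% on LN521. At an unadjusted p under 0.05 5, 1 and 2 of the 10 genes were counted on LN523, LN323 and LN521 in edgeR. The share of all genes at that threshold was not counted, so nothing is read from these numbers. DESeq2 called 1, 0 and 0 of the 10, beside 195 of 22243, 11 of 30069 and 342 of 20504 genes.

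The matrices were compared within each day to ask whether the laminin isoform bears on these genes. On day 2 VIPR2 was lower on LN323 than on LN521, by a log2 difference of -1.01 (SE 0.29, adjusted p = 0.0275), although the libraries given above overlapped. The call was lost in DESeq2 (adjusted p = 0.806), in limma (adjusted p = 0.394) and with the filterByExpr filter (adjusted p = 0.465). It was also lost on leaving out replicate 1 or 3 of LN323 or replicate 2 or 3 of LN521, and over the 6 fits that left out a library the difference ran from -2.14 to -0.39. It was the only one of the 10 genes called, against 2.5% of all genes. No gene of the set was called for LN523 against LN323 or LN523 against LN521 on day 2, where 0.233% and 0.624% of all genes were. DESeq2 called 0 of the 10 in each, beside 706 and 639 of 38650 genes. At an unadjusted p under 0.05 in edgeR, where the share of all genes was not counted, 3 and 2 of the 10 were found. NPY1R was among them, with all LN523 libraries above those of LN323 and LN521 on day 2 and log2 differences of 0.77 and 0.62 (adjusted p = 1 and 0.566). NTS measured lower on LN523 than on either other matrix (log2 differences -0.83 and -0.74, adjusted p = 0.108 and 0.105), and against LN521 it passed in the fit without the lane block (adjusted p = 0.00585). Against LN323 it passed without replicate 2 of either group (adjusted p = 3.25e-08 and 0.012), as did VIPR2 in the same fits (log2 differences 1.46 and 1.47, adjusted p = 1.19e-04 and 0.00103, against 0.61 with all libraries). NTS also passed against LN521 without replicate 3 of LN521 (adjusted p = 0.00213).

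On day 22 NTSR1 was higher on LN523 than on LN521, at a time the choice of the set did not use directly. Over all genes averaging 1 CPM or more, deviations of same-lane libraries from their group means correlated between days 22 and 32. In lanes 1, 2 and 3, r was 0.432, 0.307 and -0.00761 on LN523 and 0.458, -0.0392 and 0.405 on LN521. The day 22 values are therefore not fully separate from the choice. The LN523 libraries held 2.38 to 7.09 CPM and lay above all LN521 libraries, which held 0.616 to 2.25 CPM, and LN523 was higher in all 3 lanes. The log2 difference was 1.73 (SE 0.42, adjusted p = 0.0219), and NTSR1 was the 1 called gene of the 10, against 0.572% of all genes. The call did not hold widely. It was lost without the lane block (adjusted p = 0.904), with the filterByExpr filter (adjusted p = 0.94), in limma (adjusted p = 0.916), with only the libraries of both groups (adjusted p = 0.925), and without replicate 1 or 3 of LN523 or replicate 2 of LN521 (adjusted p = 0.0701 to 0.807). The direction held in all of these, with log2 differences from 1.16 to 1.97. LN323 also lay above LN521 without overlap, by 1.55 (SE 0.43, adjusted p = 0.0721), and shares the LN521 libraries. DESeq2 called that difference (adjusted p = 0.0107), as edgeR did without replicate 1 of LN521 (adjusted p = 0.0327).

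VIPR2 was higher on LN323 than on LN521 on day 22, by 1.97 (SE 0.36, adjusted p = 2.03e-04), and measured 1.09 higher on LN523 (SE 0.34, adjusted p = 0.179). Without replicate 3 of LN521, the highest of its group, the LN523 difference was 1.79 and passed (adjusted p = 0.00366). Both differences were positive in all 3 lanes although the libraries overlapped across lanes. On the same day NPY1R was higher on LN323 than on LN521 by 0.99 (SE 0.25, adjusted p = 0.0347), in 2 of 3 lanes and with overlap, and the log2 difference of NPY2R was -2.42 (SE 0.62, adjusted p = 0.0352), with all LN323 libraries below those of LN521. These are 3 of 10 genes, against 0.616% of all genes. All 3 calls were lost without the lane block, with the filterByExpr filter and in limma on log2 TPM (adjusted p = 0.851 to 0.934), and those of NPY1R and NPY2R also in DESeq2 (adjusted p = 0.0611 and 0.186). On leaving out each of the 6 libraries in turn, the NPY1R call was lost in 5 fits, where the difference ran over all 6 from 0.65 to 1.39, and the NPY2R call in 4, with differences from -3.12 to -1.53. The NPY1R and NPY2R calls were kept in only 2 and 3 of 12 recomputations. That of VIPR2 was kept in 7 of 12, and was also lost without replicate 1 or 2 of LN323 (adjusted p = 0.162 and 0.599). Between LN523 and LN323 on day 22 no gene of the set was called, against 0.013% of all genes. DESeq2 called 0 of the 10, beside 547 of 38609 genes. At an unadjusted p under 0.05 in edgeR 2 of the 10 were found, where the share of all genes was not counted.

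Some cell type markers were called between the matrices on day 22. In these comparisons with LN521, 0.572% of all genes were called for LN523 and 0.616% for LN323. The filterByExpr filter and limma left 0 called genes of the table in both, and the fit without the lane block left 1 and 0. At most 1 of the marker calls below was therefore kept under any of these settings. Of the 6 pluripotency markers 2 were called lower on LN523 and 4 on LN323 than on LN521, and of the 7 pigment epithelium markers 2 and 1, while 0 of the 6 eye field markers were called in any comparison of that day. Pluripotency markers summed to 111 to 408 CPM on LN521, 38.7 to 167 CPM on LN523 and 53.1 to 64.9 CPM on LN323, and pigment epithelium markers to 1349 to 2328, 1082 to 1376 and 887 to 1934 CPM. Eye field markers summed to 1065 to 1738 CPM on LN521, 922 to 1898 CPM on LN523 and 1313 to 1974 CPM on LN323, and none of these markers was at 0 in any of these groups. Other lists also had calls against LN521. Photoreceptor precursor and neural crest markers each had 1 lower on LN523 and 1 lower on LN323. Amacrine and horizontal markers had 1 lower on LN523, and 1 higher and 1 lower on LN323. Ganglion markers had 1 higher and 1 lower on LN523, and 1 higher on LN323. Forebrain markers had 1 lower on LN323 only. The part of any list in the receptor differences was not tested.

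On day 32 the contrast by which the set was chosen, LN523 minus LN521, measured 2.33 for NTSR1 and 1.86 for VIPR2 on the log2 scale, with both higher in all 3 lanes and with overlapping libraries. In the same contrast ADCYAP1 measured 1.57 and NPY2R -3.25 without overlap, OPRK1 -1.80, NTS 0.72, NPY1R -0.52, VIPR1 -0.31 and NPY 0.27. The fitted value of NPY has the opposite sign to its group means, which were 2.92 CPM on LN523 and 3.27 CPM on LN521. These values are a description. LN323 minus LN521 rests on the same LN521 libraries, in which NTSR1 and VIPR2 were low by the choice, and is also a description. It measured 1.57 for NTSR1, 1.67 for VIPR2, -1.75 for OPRK1, -1.69 for NPY2R and 1.27 for ADCYAP1. In that fit 1 of the 10 genes, VIPR2, was past the threshold beside 0.117% of all genes, and nothing is read from this count. At an unadjusted p under 0.05 in edgeR 1 of the 10 genes was found between LN523 and LN323 on day 32, where the share of all genes was not counted. DESeq2 called 0 of the 10. In the test reported none of the 10 genes was called between LN523 and LN323 on day 32, and neither was any gene in the table (0%). This 0% depended strongly on the fit, since DESeq2 called 823 genes of the table and edgeR with only the libraries compared called 1035. With only those libraries NTS, NTSR1 and NPY1R passed (log2 differences 0.74, 0.69 and -0.58, adjusted p = 0.00903, 0.0489 and 0.0279). This comparison shares the LN523 libraries with the choice.

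**Figure D3:**
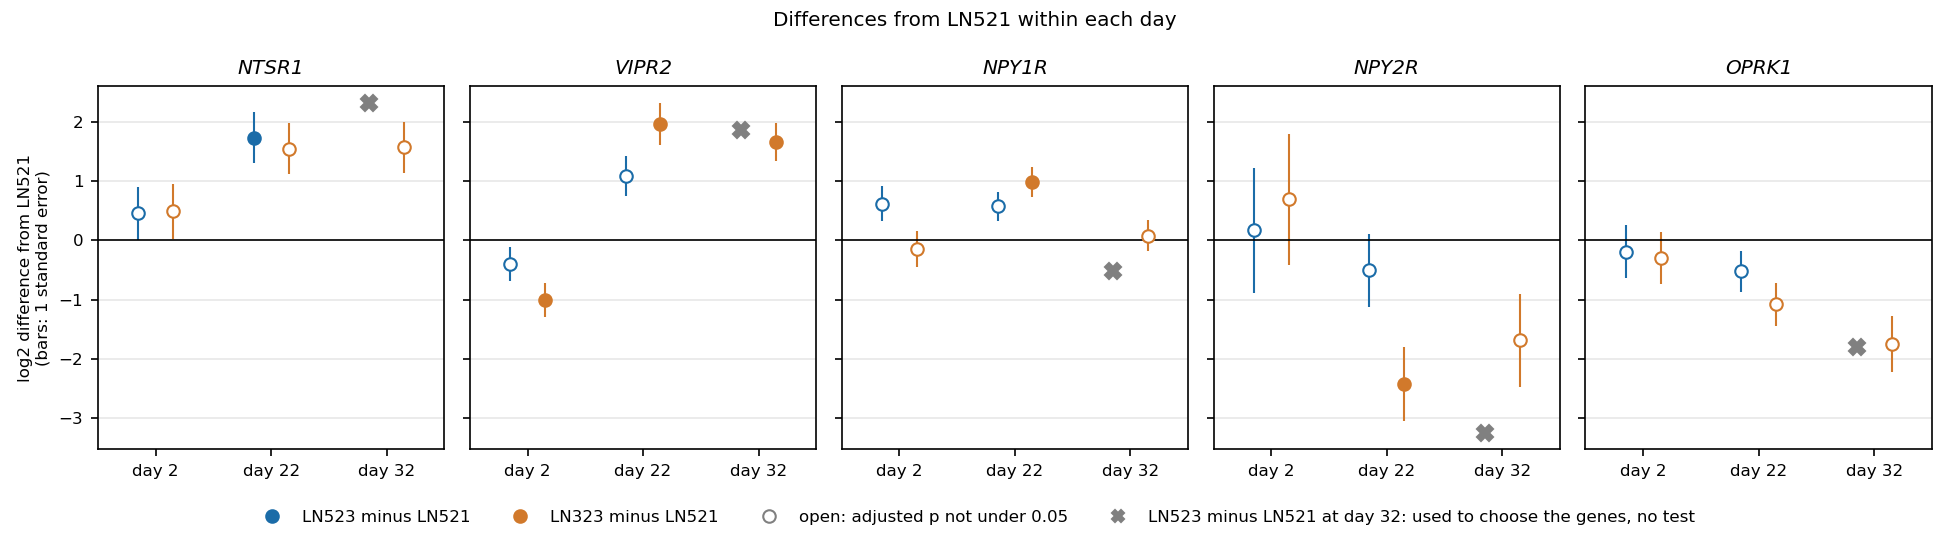
Log2 difference of LN523 and LN323 from LN521 within each day (vertical axis, bars of 1 standard error) for 5 receptor genes, filled where adjusted p was under 0.05. Crosses give LN523 minus LN521 on day 32, by which the genes were chosen. The LN323 points of that day share its LN521 libraries, so nothing is read from the day 32 signs of NTSR1. On the earlier days NTSR1 lies above 0 at every point. Its only call among the tested points, adjusted p = 0.0219 in edgeR for LN523 on day 22, was kept in 5 of 12 recomputations.

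The wider pathway was described by 101 further genes in 8 lists. Between day 2 and day 22 on LN523, LN323 and LN521, 30, 30 and 23 of them were lower and 11, 17 and 14 higher. Of all genes 10.2%, 10.9% and 8.09% were lower and 11.5%, 11.8% and 10.8% higher, shares that include many genes with few counts. With the filterByExpr filter 10707, 11149 and 9296 of 25682 genes were called in either direction. The median log2 changes of the list genes were -0.25, -0.12 and -0.30 beside the medians near 0 over all genes. On all 3 matrices 20 were lower, 10 higher and 45 uncalled. The VIP, PACAP and secretin family list had 2 of 9 genes lower on all matrices, the PACAP receptor ADCYAP1R1 and the growth hormone-releasing hormone receptor GHRHR, and none higher. ADCYAP1R1 averaged 49.0, 51.3 and 35.6 CPM on LN523, LN323 and LN521 on day 2 and 1.61, 0.71 and 2.95 CPM on day 22. Over the same interval ADCYAP1 rose and VIPR1 fell. The level of ADCYAP1R1 on day 32 was 1.59, 1.11 and 1.72 CPM.

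**Figure D4:**
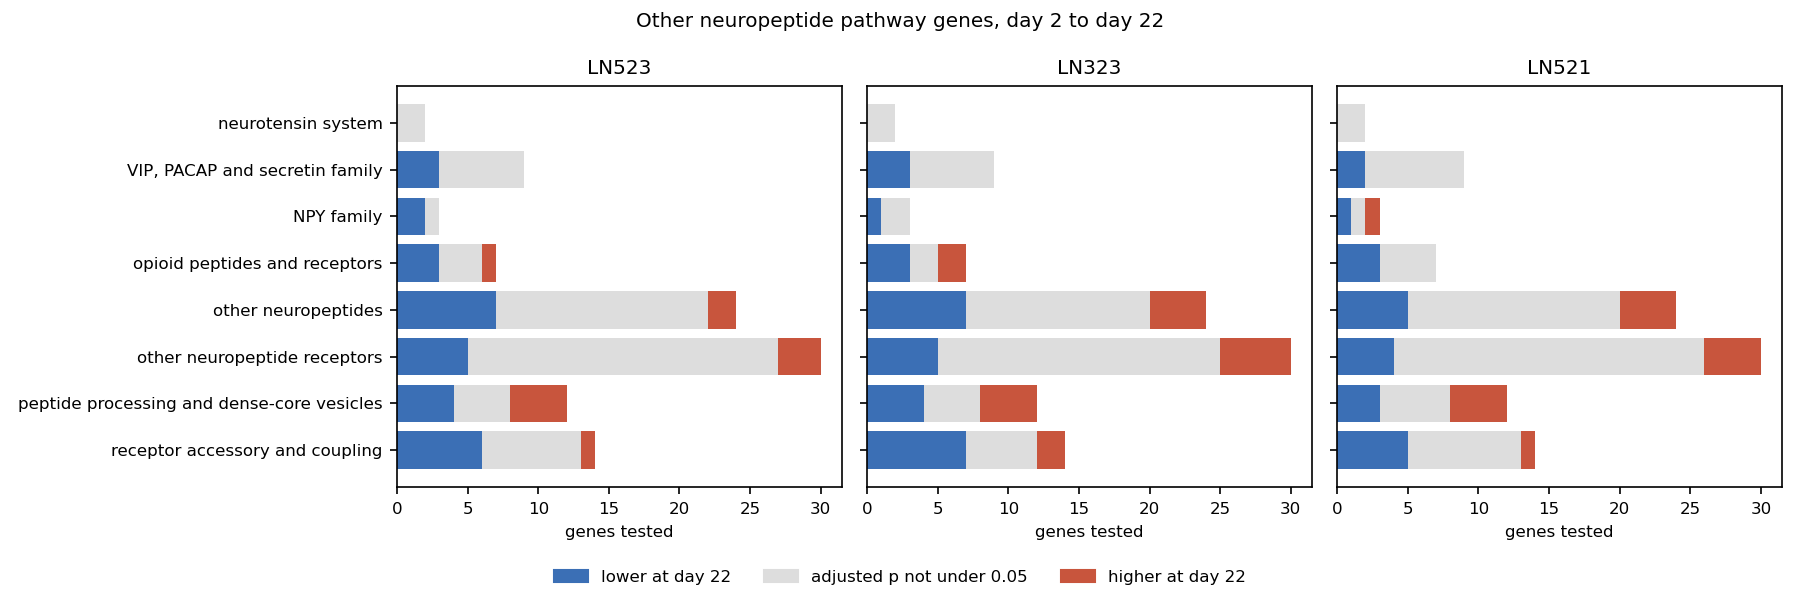
Number of genes of each pathway list called lower, called higher or not called between day 2 and day 22, with 1 panel per matrix and the number of genes tested on the horizontal axis. The coupling list holds 5 to 7 lower and 1 to 2 higher of 14 genes, and the peptide processing list holds 3 or 4 lower and 4 higher of 12.

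In the opioid list 3 of 7 genes were lower on all matrices, the precursors PDYN and POMC and the delta receptor OPRD1. PDYN, whose peptides act on the kappa receptor, fell from 4.28 to 0.0476 CPM on LN523 (log2 change -6.56, adjusted p = 6.64e-06) and from 4.20 to 0.121 CPM on LN521 (-5.03, adjusted p = 1.10e-04), and on LN323 it went from 3.07 CPM to 0 in all 3 libraries (adjusted p = 1.01e-06). OPRK1 rose on 2 of these matrices over the same interval. In the NPY family list PYY was lower on all 3 matrices. A further NPY receptor, NPY5R, averaged 1.02, 1.36 and 0.843 CPM on LN523, LN323 and LN521 on day 2. On day 22 it averaged 2.41, 3.27 and 2.38 CPM. Among other peptides GAL, the galanin gene, fell from 54.7 to 0.229 CPM on LN523 (log2 change -7.99, adjusted p = 1.19e-11), by 7.21 on LN323, and it went from 32.0 to 1.04 CPM on LN521. TRH, the thyrotropin-releasing hormone gene, rose on LN523 from 0.23 to 13.1 CPM (log2 change 5.91, adjusted p = 4.53e-14), by 7.87 on LN323 and by 7.48 on LN521. PTHLH, which encodes parathyroid hormone-related protein, rose from 0.072 to 7.89 CPM on LN523, from 0.0273 to 9.81 CPM on LN323 and from 0.00773 to 2.58 CPM on LN521, where a few counts carry the day 2 values, and its receptor PTH1R rose by 4.30 on LN523 and 5.49 on LN323.

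Genes of peptide processing split. CPE, the carboxypeptidase that trims peptide precursors, rose from 19.5 to 513 CPM on LN521 (log2 change 4.73, adjusted p = 4.07e-21), and PAM, PCSK1N and SCG2 rose on all matrices as well. The granins CHGA and SCG3 and the convertase PCSK1 fell on all 3. From day 22 to day 32 on LN523, CHGA rose from 0.561 to 5.38 CPM (log2 change 3.34, adjusted p = 0.0379), SCG3 from 1.25 to 9.39 CPM (3.04, adjusted p = 0.00589) and the somatostatin receptor SSTR2 from 2.54 to 19.0 CPM (2.94, adjusted p = 0.0255). These were 3 of the 4 list genes called there, in the interval in which ADCYAP1 rose. With the filterByExpr filter 0 of 25682 genes were called in this comparison, so all of these calls were lost. On LN521 PTHLH, the oxytocin receptor OXTR and TRH rose (log2 changes 3.45, 2.03 and 1.89, adjusted p = 0.00187, 0.00171 and 0.00778) and the cholecystokinin receptor CCKBR fell by 2.13 (adjusted p = 0.0105). On LN323 0 of the 101 genes were called. Among receptor coupling genes 5 of 14 were lower on all matrices, the adenylyl cyclases ADCY1, ADCY2 and ADCY8, the G protein GNAO1 and RAMP3, and GNAS, which encodes the Gs subunit, was higher on all 3.

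Between matrices few list genes were called. On day 2 LN323 against LN521 gave 3 higher, CHGA, GAL and ADM (log2 differences 1.30, 1.20 and 0.79, adjusted p = 3.09e-06, 2.49e-06 and 0.00913), and 3 lower, CALCRL, PTH1R and GRPR (-1.65, -1.42 and -0.91, adjusted p = 0.00126, 0.0464 and 0.00118). Of all genes 2.5% were called in this comparison. All of these calls were lost with the filterByExpr filter and in limma, where 0 genes of the whole table were called. On day 22 LN523 against LN521 gave 3 lower, CHGA, the GLP-1 receptor GLP1R and the convertase PCSK2 (-3.48, -3.18 and -2.65, adjusted p = 0.0496, 0.0044 and 0.0456), opposite in sign to NTSR1. Of all genes 0.572% were called in this comparison. With the filterByExpr filter, in limma and with only the libraries compared, 0 genes of the whole table were called. Without the lane block 1 was, so at most 1 of these 3 calls remained under any of these settings. LN323 against LN521 gave TRH higher by 1.20 (adjusted p = 0.00341) on that day, beside 0.616% of all genes called. That call was lost with the filterByExpr filter, in limma and without the lane block, where 0 genes of the table were called. The other matrix comparisons of days 2 and 22 called none of the 101.

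Finally, the genes whose levels ran most like each member over the 27 libraries were found by Pearson's r of log2(CPM + 0.5), among the 14990 genes that averaged 1 CPM or more in any group. The points share libraries, lanes and the large change between day 2 and the later days, so r is a description. ADCYAP1 ran most like PRDM8 (r = 0.945), POU4F2 (r = 0.938) and KLHL1 (r = 0.933). VIPR1 ran most like PLPP2 (r = 0.963), TENT5B (r = 0.961) and ITPR3 (r = 0.959). NPY ran most like SLC17A8 (r = 0.907), NPY1R like PPP4R3B (r = 0.874), OPRK1 like TMEM52B (r = 0.872) and NTS like HECW1 (r = 0.86). NPY2R ran most like DMRT3 (r = 0.841), VIPR2 like CELF2 (r = 0.831) and NTSR1 like LEFTY2 (r = 0.83). Between members the highest r of deviations from the group means was 0.757, for VIPR2 and NPY1R, while NTS and NTSR1 had -0.038.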

How the data were processed

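RNA-seq libraries of H1 hESCs on LN523, LN323 and LN521 at days 2, 22 and 32 were analysed, 27 libraries in 9 groups of 3, grouped by the labels. RNA was extracted with RNeasy, libraries were made with a stranded total RNA kit, and paired 150 bp reads were sequenced on a HiSeq. The authors trimmed reads with cutadapt, aligned them to hg38 with STAR 2.5.2b and counted Ensembl 79 genes with featureCounts 1.5.1, per the submitters' processing notes and the study's methods. The deposited counts are whole numbers without normalization, with rRNA and mitochondrial genes removed. The deposited TPM values are scaled for gene length and library total by the authors.

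Symbols and positions came from GENCODE 44, which named 43052 of the 44852 genes. The 10 members and the gene lists were chosen with earlier results of these data known. Counts were tested with edgeR 4.0.16 in R 4.3.3 (quasi-likelihood test, TMM, genes with more than 1 count in sum, sequencing lane as a block, Benjamini-Hochberg adjustment over all genes, threshold 0.05). Time comparisons and their differences used all 27 libraries, and matrix comparisons the 9 of a day. Fitted log2 changes were not given where a group held 0 counts. There the bound against 3 counts over the group was used. This bound takes each count as independent, which would not hold if both reads of a pair were counted. The scripts were tested on simulated data. The biological coefficient of variation was 45.1% over all libraries and 37.4%, 39.5% and 44.4% on days 2, 22 and 32.

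The replicate number is the sequencing lane in the labels, and the study's methods use the lane as a covariate, so it was kept as the block. The correlation of same-lane deviations between matrices had means of 0.523 on day 22 and 0.603 on day 32 for LN523 and LN323, -0.225 on day 2 for them, and -0.055 to 0.144 for the pairs with LN521. Alternatives were RLE normalization, the filterByExpr filter, no block, DESeq2 1.42.0, limma 3.58.1 on log2(TPM + 1) for genes with a TPM of at least 0.1 in 3 libraries, only the libraries compared, and leaving out each library. All members were named. Of the 101 list genes, the text names the 3 largest called rises and falls per time comparison that averaged 1 CPM or more in either group and had 1 sign in all lanes, and up to 6 called genes per matrix comparison. Other list genes are named where they were called on all 3 matrices or as receptors of a member, a choice made after their values were seen. Promoters came from RefSeq on GRCh38.p14, where 9 members were found and 7 had the GENCODE start.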

Additional observations from a re-analysis of the deposited data

How the results depend on the processing

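Of the 144 recomputed values of called genes in settings that kept every library, 109 kept their direction and call, 35 lost the call and 0 changed direction, and when single libraries were left out 105 of 144 kept both. NTS and VIPR1 between day 2 and day 22 on all 3 matrices and NPY1R on LN323 kept their calls throughout. The cause of the other changes was not tested. With limma on log2 TPM, the genes called between day 2 and day 22 numbered 3 on LN523 (5 in the test reported), 3 on LN323 (5) and 4 on LN521 (7), and the matrix calls of LN323 against LN521 on days 2, 22 and 32 and of LN523 against LN521 on day 22 fell to 0. The filterByExpr filter gave 0 for the same 4 matrix comparisons and 0 for LN523 between day 22 and day 32. With only the libraries compared, the count from day 22 to day 32 was 2 on LN523, 1 on LN323 and 1 on LN521, that of LN523 against LN323 on day 32 was 3, that of the LN323 and LN521 changes against each other was 1, and LN523 against LN521 on day 22 and LN323 against LN521 on day 32 gave 0. DESeq2 gave 0 for LN323 against LN521 on day 2 and 3 on day 32. Without the replicate block the count was 1 for LN523 against LN521 on day 2, and 0 for LN523 against LN521 on day 22 and for LN323 against LN521 on days 22 and 32, and the block changed no other count by over 1.5 times. Leaving out 1 library gave 3 to 5 genes on LN523, 4 to 6 on LN323 and 6 to 7 on LN521 between days 2 and 22, and 0 to 3, 0 and 0 to 1 between days 22 and 32. For LN523 against LN323 it gave 0 to 2, 0 to 1 and 0 on days 2, 22 and 32, for LN523 against LN521 0 to 1 and 0 to 3 on days 2 and 22, and for LN323 against LN521 0 to 2, 0 to 5 and 0 to 4. The differences between changes stayed at 0, apart from 0 to 1 for LN323 against LN521. Depth limits VIP, NPY2R and ADCYAP1 most, whose day 2 levels rest on at most 40 counts over a group.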

Other observations

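Even numbers made up 68.8% of the non-zero deposited counts, and 81.3% of the 246 non-zero counts of the 10 genes. Whether both reads of a pair were counted is not given in the sources used here.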
